A study of Arabidopsis thaliana with 4 samples.

Results

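The 10 genes described here are the iron uptake genes and coumarin genes of the Arabidopsis root: IRT1, IRT2, FRO2, AHA2, CYP82C4, F6'H1, S8H, ABCG37, MTP3 and IREG2. They were picked by locus tag out of 33544 genes in the deposited tables, and all 10 were listed. They were chosen with earlier genotype values of these same libraries known, since IRT1, CYP82C4 and FRO2 had already been seen to be lower in ect2. The genotype values of the 10 genes are therefore a description and carry no test.

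The study sequenced polyadenylated RNA from whole Arabidopsis thaliana seedlings at 14 days of age. Of the 4 libraries, 2 are from ect2, a T-DNA insertion mutant of ECT2 in the Col-0 background, and 2 are from wild-type Col-0. ECT2 encodes a YTH-domain reader of N6-methyladenosine (m6A) in RNA. Neither genotype received a treatment, and the plants grew on Murashige and Skoog medium or on soil. The labels do not say which library came from which, nor how much iron either one supplied. They also give neither the insertion allele nor whether replicates were separate sets of plants, so any error below rests only on these libraries. The standard error (SE) of a gene is drawn by the fit toward the spread of genes of like level. It is therefore not the spread of that gene's own values alone.

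Plants other than grasses take up iron by reducing it at the root surface. Proton pumps acidify the soil, a membrane reductase turns ferric into ferrous iron, and a transporter carries the ferrous iron into epidermal cells. Coumarins are phenolics secreted by the root that bind and reduce ferric iron, which helps most where iron is poorly soluble. The transcription factor FIT, paired with BHLH38, BHLH39, BHLH100 or BHLH101, switches on many of these genes when iron is short.

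ECT2 itself had 9.07 and 8.58 FPKM in the ect2 libraries, against 137 and 76.7 FPKM in those of Col-0. FPKM is the number of sequenced fragments per kilobase of transcript, scaled to the mapped fragments of the library, so it allows levels of different genes to be compared. Per library, 18908 to 19114 genes had at least 1 FPKM. The number of reads is not given, and the lowest values place ect2 replicate 1 at 1.39 times, ect2 replicate 2 at 0.966 times and Col-0 replicate 1 at 1.46 times the depth of Col-0 replicate 2. Col-0 replicate 1 stood apart from the rest. Its log2 values correlated with the other libraries at 0.932 to 0.940 across genes, while the pairs without it gave 0.956 to 0.966. All 18 root markers had a value above 0 in every library. Their summed level was 630 and 744 FPKM in ect2 and 480 and 639 FPKM in Col-0, so the groups overlapped. Most of each sum came from a single marker, so the sums say little about the others. The 7 leaf markers summed to 28200 and 33400 FPKM in ect2 and 33400 and 29200 FPKM in Col-0.

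The sequences upstream of 4 of the genes are shown because these genes differ in how they behaved below: IRT1, FRO2 and CYP82C4 had lower values in both ect2 libraries, and F6'H1 overlapped between genotypes. Each runs from 250 bases before to 50 bases after the annotated start, 5′ to 3′ on the gene's own strand, and was read from the RefSeq TAIR10.1 genome. The capitals mark matches to CANNTG, the E-box, which basic helix-loop-helix factors such as FIT can bind. The motif reads the same on both strands. The windows are chr4:10707094-10707393 for IRT1, chr1:208745-209044 for FRO2, chr4:15451738-15452037 for CYP82C4 and chr3:4449009-4449308 for F6'H1, all on the plus strand.
IRT1 promoter: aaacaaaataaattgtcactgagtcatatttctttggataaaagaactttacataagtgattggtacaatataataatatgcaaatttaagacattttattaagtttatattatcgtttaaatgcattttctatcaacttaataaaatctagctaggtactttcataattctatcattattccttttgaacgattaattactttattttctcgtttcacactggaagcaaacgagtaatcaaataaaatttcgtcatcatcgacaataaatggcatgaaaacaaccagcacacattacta
FRO2 promoter: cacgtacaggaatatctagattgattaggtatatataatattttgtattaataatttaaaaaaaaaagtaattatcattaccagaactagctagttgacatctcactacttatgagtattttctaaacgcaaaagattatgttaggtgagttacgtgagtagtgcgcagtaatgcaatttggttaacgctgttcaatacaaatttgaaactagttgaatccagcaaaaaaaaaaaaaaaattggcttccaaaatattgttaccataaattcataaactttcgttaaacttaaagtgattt
CYP82C4 promoter: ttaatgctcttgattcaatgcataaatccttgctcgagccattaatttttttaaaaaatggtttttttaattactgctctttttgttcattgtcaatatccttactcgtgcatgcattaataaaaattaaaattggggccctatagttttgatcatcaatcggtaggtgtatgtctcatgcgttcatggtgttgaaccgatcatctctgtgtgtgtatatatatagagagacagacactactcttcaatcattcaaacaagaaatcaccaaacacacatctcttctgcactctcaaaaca
F6'H1 promoter: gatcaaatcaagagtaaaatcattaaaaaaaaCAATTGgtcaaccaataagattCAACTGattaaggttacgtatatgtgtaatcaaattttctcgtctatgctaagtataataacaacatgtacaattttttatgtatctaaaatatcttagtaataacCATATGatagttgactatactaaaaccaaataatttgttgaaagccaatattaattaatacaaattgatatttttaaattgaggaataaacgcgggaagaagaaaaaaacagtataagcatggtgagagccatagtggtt

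The windows of IRT1, FRO2 and CYP82C4 hold no CANNTG, and that of F6'H1 holds 3 matches, at -218, -196 and -90 from the start. Among the 10 genes, 4 have a match in this window, the others being S8H, ABCG37 and MTP3. IRT2, AHA2 and IREG2, whose values overlapped between genotypes, also have no match. MTP3, whose ect2 libraries both lay below both Col-0 libraries, has 2. Of 27443 protein-coding genes with such a window, 61.7% have a match. The stricter G-box form CACGTG, which is contained in CANNTG, is in none of the 10 windows and in 7.68% of all of them. These letters say nothing about more distant sites.

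In the 3′ UTR, UGUAC and UGUAU are forms of a motif reported for ECT2. One or the other is present in 8 of the 10 annotated 3′ UTRs, against 64.8% of 23613 3′ UTRs with a median length of 261 nt. FRO2, with a 3′ UTR of 272 nt, and CYP82C4, with one of 258 nt, have no match. IRT1 has 1 match in 292 nt, and IRT2 has 4 in 583 nt. The first match of IRT1, of its neighbour IRT2 and of AHA2 is given with 10 bases on each side, with the match in capitals.
IRT1 3′ UTR site: aguuuucuuuUGUAUcuuccuuuau
IRT2 3′ UTR site: uacguucauaUGUAUauaauuuaug
AHA2 3′ UTR site: uucucaaauaUGUACuuuugcauaa
Of the 4 genes whose ect2 libraries both lay below both Col-0 libraries, IRT1 and MTP3 have the motif, while FRO2 and CYP82C4 do not.

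The transporter of the root surface, IRT1 (AT4G19690; chromosome 4, 10707344 to 10709015, plus strand, 3 exons), carries ferrous iron and also zinc, manganese and cadmium. It had 3.99 and 4.67 FPKM in the ect2 libraries, against 23.5 and 33.6 FPKM in those of Col-0. Both ect2 libraries lay far below both Col-0 libraries, and the mean in Col-0 was 6.59 times that in ect2. On the scale log2(FPKM + 1) the difference was -2.45 ± 0.27 (SE, n = 2 each), while replicates differed by 0.18 in ect2 and 0.50 in Col-0. The difference was -2.70 without Col-0 replicate 1 and -2.20 without Col-0 replicate 2. Whole seedlings were sampled, so less RNA per root cell and fewer such cells cannot be told apart.

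IRT2 (AT4G19680), a related iron transporter of root epidermal cells, is the next gene upstream of IRT1 on the same strand, with 2505 bases and no annotated gene between the pair. It had 2.07 and 1.13 FPKM in ect2 and 1.85 and 1.56 FPKM in Col-0. The ect2 values lay on either side of the Col-0 values, and the difference was -0.08 ± 0.28 (SE). The level of IRT1 was 1.93 and 4.12 times that of IRT2 in the ect2 libraries and 12.7 and 21.6 times that of IRT2 in the Col-0 libraries. The neighbours thus stood much closer to each other in level in the mutant.

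FRO2 (AT1G01580; chromosome 1, 208995 to 213082, plus strand, 8 exons) encodes the ferric chelate reductase that supplies IRT1 with ferrous iron. It had 1.26 and 1.12 FPKM in ect2 and 4.44 and 6.76 FPKM in Col-0. The groups did not overlap, and the Col-0 mean was 4.71 times the ect2 mean. The log2 difference was -1.57 ± 0.27 (SE, n = 2 each), or -1.83 without Col-0 replicate 1 and -1.31 without Col-0 replicate 2. AHA2 (AT4G30190), the proton pump that acidifies the root surface, had 149 and 147 FPKM in ect2 and 189 and 125 FPKM in Col-0. It was by far the most abundant of the 10 in both genotypes, with the ect2 values between the Col-0 values and a log2 difference of -0.06 ± 0.27 (SE). Leaving out Col-0 replicate 1 or Col-0 replicate 2 gave 0.24 or -0.35, so the sign for AHA2 rests on which Col-0 library is used. Of the reduction and uptake steps at the root surface, the reductase and the main transporter thus had lower values in ect2, while those of the pump overlapped.

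**Figure D1:**
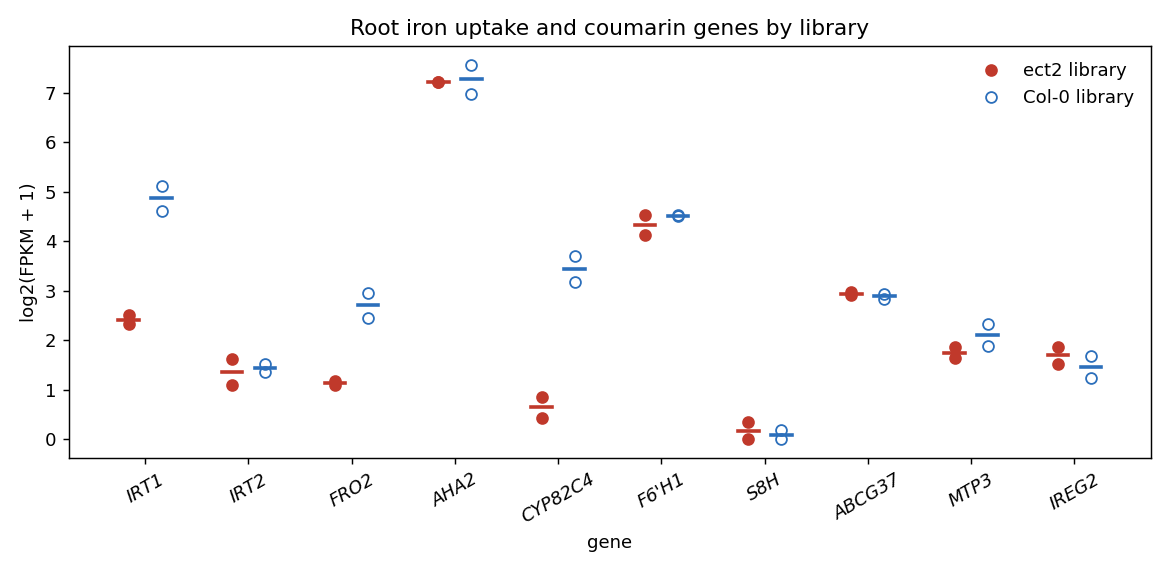
Level of each of the 10 genes in log2(FPKM + 1), with 1 point per library (filled, ect2; open, Col-0) and a short line at the mean of each genotype. IRT1, FRO2 and CYP82C4 lie well apart between genotypes, while 6 genes overlap and the MTP3 libraries nearly touch.

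Coumarin synthesis starts from feruloyl-CoA. F6'H1 (AT3G13610; chromosome 3, 4449259 to 4450811, plus strand, 2 exons) encodes feruloyl-CoA 6'-hydroxylase, which opens the route to scopoletin. It had 22.0 and 16.5 FPKM in ect2 and 21.7 and 22.1 FPKM in Col-0. Of these, ect2 replicate 2 was the low one and the other 3 were nearly equal, so the groups overlapped, with a log2 difference of -0.19 ± 0.24 (SE). The gene shares 67 bases with PUT4 on the opposite strand, and without strand information reads from the overlap cannot be assigned.

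S8H (AT3G12900) encodes scopoletin 8-hydroxylase, which turns scopoletin into fraxetin. The tables list 0 and 0.261 FPKM for ect2 and 0 and 0.132 FPKM for Col-0, so the groups overlapped. It was the only one of the 10 that did not reach 1 FPKM in at least 2 libraries, and so it was not among the genes tested. Among genes whose transcripts are within 5% of its length and have a value above 0, only 6.74% were lower than S8H in ect2 replicate 2 and 2.99% in Col-0 replicate 2, so S8H stood at the edge of detection in both genotypes. An exact 0 in such a table can also be a failed estimate.

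CYP82C4 (AT4G31940; chromosome 4, 15451988 to 15454224, plus strand, 3 exons) encodes the cytochrome P450 that oxidizes fraxetin to sideretin, the last of these steps. It had 0.345 and 0.810 FPKM in ect2 and 8.05 and 12.0 FPKM in Col-0. This was the widest gap among the 10 genes, with a Col-0 mean 17.4 times the ect2 mean. The log2 difference was -2.80 ± 0.30 (SE, n = 2 each), or -3.06 without Col-0 replicate 1 and -2.54 without Col-0 replicate 2. The ect2 values are so low that the added pseudocount of 1 FPKM narrows the difference, which was -3.97 with a pseudocount of 0.1. CYP82C4 reached 1 FPKM in the Col-0 libraries only. In Col-0 the last enzyme gene of the route was well expressed while the S8H gene before it was barely detected.

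ABCG37 (AT3G53480), an exporter of phenolics also called PDR9, had 6.52 and 6.83 FPKM in ect2 and 6.62 and 6.14 FPKM in Col-0. It had one of the tightest sets of values, overlapping between genotypes, with a log2 difference of 0.06 ± 0.22 (SE). Along the coumarin route, then, the first enzyme gene and the exporter gene overlapped between genotypes and the last enzyme gene did not.

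The remaining pair handles metals that enter the root along with iron. MTP3 (AT3G58810), which moves zinc into the vacuole, had 2.1 and 2.63 FPKM in ect2 and 4.0 and 2.68 FPKM in Col-0. The groups did not overlap, but ect2 replicate 2 and Col-0 replicate 2 were almost equal. The log2 difference of MTP3 was -0.36 ± 0.27 (SE), and -0.13 without Col-0 replicate 1. IREG2 (AT5G03570), a vacuolar transporter of nickel and cobalt, had 2.64 and 1.87 FPKM in ect2 and 1.36 and 2.22 FPKM in Col-0. These overlapped, with a log2 difference of 0.23 ± 0.28 (SE) that was 0.00 without Col-0 replicate 1. IREG2 shares 152 bases with a gene on the opposite strand, AT5G03580.

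Over the 10 genes the median log2 difference was -0.13, with 7 negative and 3 positive values, beside a median of -0.0096 over all 19308 genes tested. Of the 10 genes, 3 were below -1, beside 252 of the 19308 genes (1.31%). Both ect2 libraries were below both Col-0 libraries in 4 of the 10, where 20.2% of all genes tested were so. Both were above in 0 of the 10, where 17.5% of all genes were. In order of the log2 difference, only 12 of the 19308 genes lay below CYP82C4, 21 below IRT1 and 81 below FRO2, whereas 2955 lay below MTP3. In the limma fit over all genes, 0 of the 9 members that passed the filter had an adjusted p below 0.05, where 5 genes or 0.0259% of all tested did. ECT2, the gene disrupted in the mutant, had a log2 difference of -3.40 and was not among those 5 genes. The lack of a call in this fit therefore does not show a lack of difference. At an unadjusted p below 0.05 there were 3 of the 9 and 938 of the 19308. Because the members were chosen with this contrast known, nothing is read from these counts. Without Col-0 replicate 1 the log2 differences were 0.00 for IRT2, -0.20 for F6'H1, -0.01 for S8H and 0.10 for ABCG37. A permutation of 2 libraries against 2 cannot give a two-sided exact p below 0.333.

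**Figure D2:**
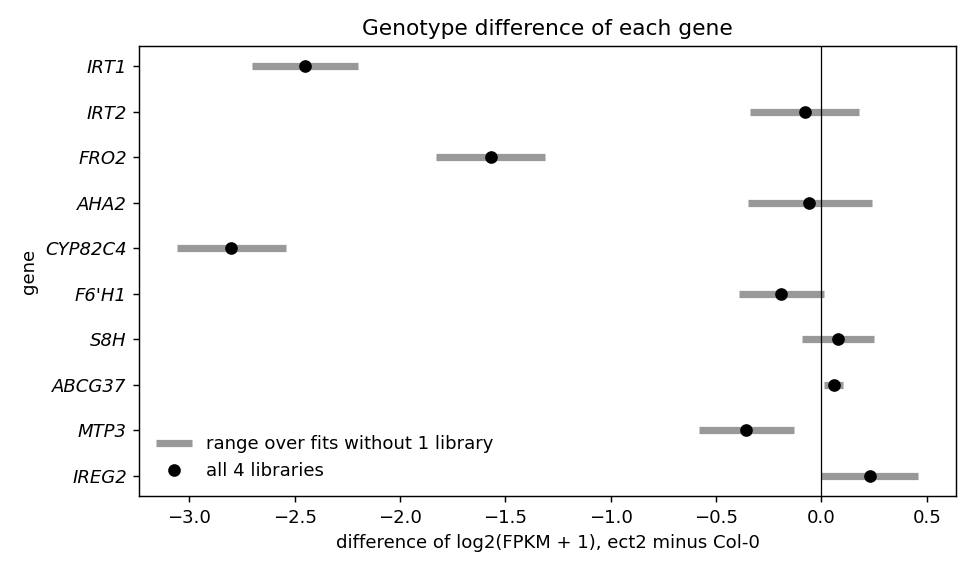
Difference in log2(FPKM + 1), ect2 minus Col-0, for each of the 10 genes (points) with the range over the fits that leave out 1 library (bars). The bars of IRT1, FRO2 and CYP82C4 stay below -1, and those of the other 7 lie between -0.58 and 0.46.

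The order of the levels differed between the genotypes mainly through those 3 genes. In ect2 it ran AHA2, F6'H1, ABCG37, IRT1, MTP3, IREG2, IRT2, FRO2, CYP82C4 and S8H. In Col-0 it ran AHA2, IRT1, F6'H1, CYP82C4, ABCG37, FRO2, MTP3, IREG2, IRT2 and S8H. Neighbours whose libraries overlapped were MTP3 with IREG2, IREG2 with IRT2 and IRT2 with FRO2 in ect2, and ABCG37 with FRO2 and IREG2 with IRT2 in Col-0. The libraries of the other neighbours did not overlap.

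IRT1, FRO2 and CYP82C4 also differed between the Col-0 libraries to a like extent. Replicate 2 held 1.43 times the IRT1 value of replicate 1, 1.52 times its FRO2 value and 1.49 times its CYP82C4 value. The same ratio was 0.841 for IRT2, 0.664 for AHA2, 1.02 for F6'H1, 0.926 for ABCG37, 0.669 for MTP3 and 1.64 for IREG2. Gaps of this size were common in Col-0. Among the 1000 genes nearest in level, 67.8% had a smaller gap between the Col-0 libraries than IRT1, and 65.4% and 68.4% had a smaller one than FRO2 and CYP82C4.

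Genes whose values over the 4 libraries were most like those of IRT1 were sought by the Euclidean distance of log2(FPKM + 1), each gene centred on its own mean. CYP82C4 stood at a distance of 0.39 with 1 non-member closer, and FRO2 at 0.90 with 9 closer. IRT1, CYP82C4 and FRO2 were chosen with their lower values in these ect2 libraries known, so nothing is read from their nearness. The next member, MTP3, stood at 2.2 with 2954 non-members closer. The 5 nearest non-members were AT5G11425 (0.24), AT3G30730 (0.55), AT2G07705 (0.66), AT2G14247 (0.69) and AT4G18422 (0.78). The first 3 of these were listed at 0 in both ect2 libraries and AT4G18422 at 0 in 1 of them, so a failed estimate is possible there. AT2G14247 had 12.8 and 13.6 FPKM in ect2 and 57.5 and 50.9 FPKM in Col-0. These 5 genes were picked for values like those of IRT1, so lower values in ect2 were built in and nothing is read from them.

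The regulators upstream were set beside the uptake genes. Like the other lists below, the regulator list was chosen with earlier results of these data known, so nothing is read from its counts. FIT (AT2G28160), named here after its values were seen, had 3.32 and 3.97 FPKM in ect2 and 4.29 and 4.17 FPKM in Col-0. Both ect2 libraries lay below both Col-0 libraries, as for 20.2% of all genes tested. The log2 difference of FIT was -0.17 ± 0.23 (SE; limma, adjusted p = 0.887). Of 21 regulator genes, 17 were tested, and limma called 0 at an adjusted p below 0.05, with 5 lower and 0 higher at an unadjusted p below 0.05, beside 448 lower and 490 higher of the 19308 genes. The median log2 difference of these 17 was -0.17, with 11 negative and 6 positive values, and it was -0.31 without Col-0 replicate 1. BHLH39, BHLH101 and BHLH38 had the smallest p (limma, adjusted p = 0.842 for each). BHLH39 (AT3G56980) had 1.31 and 1.19 FPKM in ect2 and 6.77 and 3.45 FPKM in Col-0. BHLH38 (AT3G56970) had 0.101 and 0.581 FPKM in ect2 and 8.73 and 1.67 FPKM in Col-0, and BHLH101 (AT5G04150) had 2.76 and 2.60 FPKM in ect2 and 4.56 and 9.40 FPKM in Col-0. These 3 partner genes, picked by smallest p, did not overlap between genotypes. The remaining partner, BHLH100, added after its value was seen, had a log2 difference of -1.29. Of all 17 tested regulators, both ect2 libraries were below both Col-0 libraries in 7 and above them in 3, beside 20.2% and 17.5% of all genes tested. BHLH38, BHLH39, BHLH100 and BHLH101 are close relatives, and reads shared among relatives make single values uncertain.

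The IMA genes encode small peptides that promote iron uptake, and all 3 had lower values in ect2 without passing the test (limma, adjusted p = 0.842 for each). IMA1 (AT1G47400) had 4.61 and 4.94 FPKM in ect2 and 41.7 and 13.7 FPKM in Col-0. IMA2 (AT1G47395) had 13.4 and 12.5 FPKM in ect2 and 116 and 45.4 FPKM in Col-0, and IMA3 (AT2G30766) had 3.35 and 9.16 FPKM in ect2 and 99.3 and 23.4 FPKM in Col-0. Both Col-0 libraries lay above both ect2 libraries for each, as for 20.2% of all genes tested, but the Col-0 libraries were far apart. Col-0 replicate 1 held 3.04, 2.56 and 4.25 times the value of replicate 2 for IMA1, IMA2 and IMA3, 5.22 times for BHLH38 and 1.96 times for BHLH39. Without Col-0 replicate 1 the log2 differences were -1.35 for IMA1, -1.73 for IMA2 and -1.88 for IMA3, where they were -2.12, -2.40 and -2.90 with all libraries. Between the Col-0 libraries IRT1, FRO2 and CYP82C4 went the other way, as did BHLH101.

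**Figure D3:**
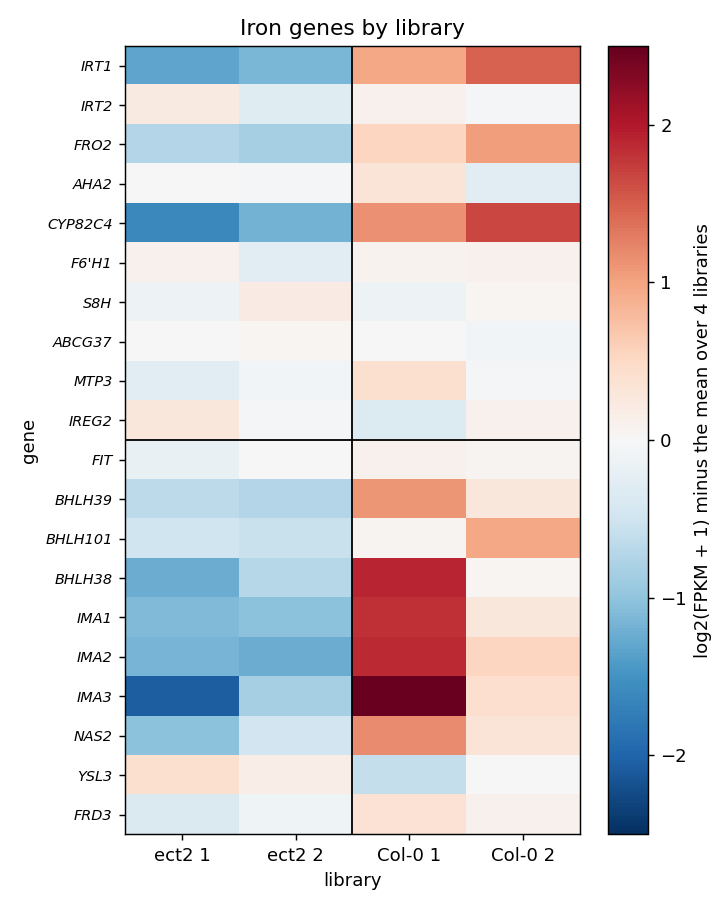
Values of log2(FPKM + 1) minus each gene's mean over the 4 libraries, for the 10 root genes (above the line) and for FIT and the named regulators, IMA peptides and transport genes (below it). IRT1, FRO2 and CYP82C4 are highest in Col-0 replicate 2, whereas BHLH38, BHLH39, IMA1, IMA2 and IMA3 are highest in Col-0 replicate 1.

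The other steps of uptake and coumarin synthesis, like the members, regulators and IMA genes above, had no gene past the threshold. Of 8 further reductases, transporters and pumps, 6 were tested and limma called 0, with 0 at an unadjusted p below 0.05 and a median log2 difference of 0.03, or 0.12 without Col-0 replicate 1. IRT3 (AT1G60960), a zinc and iron transporter, had 14.4 and 14.9 FPKM in ect2 and 10.5 and 11.5 FPKM in Col-0 (limma, adjusted p = 0.842), higher in both ect2 libraries. NRAMP1 (AT1G80830), a manganese and iron transporter of the root, had 51.3 and 34.2 FPKM in ect2 and 34.3 and 38.0 FPKM in Col-0. The proton pump gene AHA7 (AT3G60330) had 2.76 and 1.77 FPKM in ect2 and 2.01 and 1.57 FPKM in Col-0. The NRAMP1 and AHA7 values overlapped between genotypes.

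Of 16 further coumarin and phenylpropanoid genes, 13 were tested and limma called 0, with 0 at an unadjusted p below 0.05. Their log2 differences ran from -0.43 to 0.48, with a median of -0.19 that turned to 0.17 without Col-0 replicate 1. CCoAOMT1 (AT4G34050), the methyltransferase that makes feruloyl-CoA, had 197 and 254 FPKM in ect2 and 297 and 274 FPKM in Col-0 (limma, adjusted p = 0.842). BGLU21 (AT1G66270), a root beta-glucosidase that acts on the glucoside of scopoletin, had 159 and 98.7 FPKM in ect2 and 101 and 79.2 FPKM in Col-0. Its relative BGLU22 (AT1G66280) had 62.2 and 39.3 FPKM in ect2 and 41.2 and 31.2 FPKM in Col-0. No gene of this list therefore came near the gap seen in CYP82C4.

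Of 23 genes for iron transport within the plant and iron storage, 22 were tested and limma called 0, with 1 lower and 0 higher at an unadjusted p below 0.05. Their median log2 difference was -0.23, or -0.19 without Col-0 replicate 1. The lowest was NAS2 (AT5G56080), which makes the metal chelator nicotianamine, at 2.45 and 4.05 FPKM in ect2 and 14.8 and 7.84 FPKM in Col-0 (limma, adjusted p = 0.842). YSL3 (AT5G53550), a transporter of metals bound to nicotianamine, had 21.6 and 18.1 FPKM in ect2 and 10.3 and 16.2 FPKM in Col-0. FRD3 (AT3G08040), which loads citrate into the xylem for iron transport, had 2.39 and 3.06 FPKM in ect2 and 4.64 and 3.73 FPKM in Col-0. Both ect2 libraries were above both Col-0 libraries for YSL3 and below them for FRD3. Of the 22 tested, both were above in 2 and below in 6, beside 17.5% and 20.2% of all genes tested.

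Genes for other metals and other root functions were looked at for comparison. Of 12 zinc and manganese transporter genes, 9 were tested with a median log2 difference of 0.09 (0.21 without Col-0 replicate 1), and limma called 0, with 1 higher and 0 lower at an unadjusted p below 0.05. The one was ZIP3 (AT2G32270), a zinc transporter, at 7.20 and 6.16 FPKM in ect2 and 3.22 and 4.22 FPKM in Col-0 (limma, adjusted p = 0.842). ZIP4 (AT1G10970) and MTP1 (AT2G46800), the next by p, had log2 differences of 0.27 each, which were 0.37 and 0.02 without Col-0 replicate 1. Of 12 genes for uptake of phosphate, nitrate, sulfate, ammonium, potassium and boron, 10 were tested, with a median of 0.01 (0.07 without Col-0 replicate 1). Of the 18 root markers, 15 were tested, with a median of 0.15, or 0.24 without Col-0 replicate 1. Limma called 0 in both lists. At an unadjusted p below 0.05 there were 0 of the nutrient uptake genes and 1 root marker, which was higher in ect2. Of the tested root markers, 10 had a positive and 5 a negative difference. Whether root mass or root cell makeup had a part in the values of IRT1, FRO2 and CYP82C4 was not tested.

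**Figure D4:**
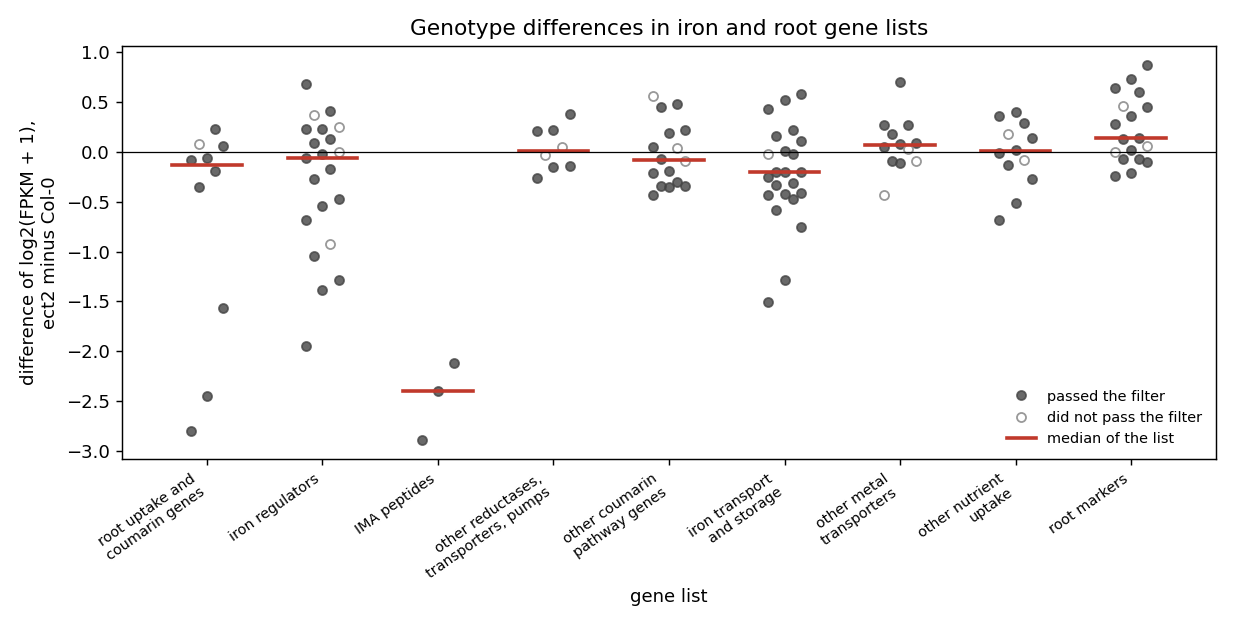
Difference in log2(FPKM + 1), ect2 minus Col-0, for every gene of each list (points; open where the gene did not pass the filter), with the median of the list as a line. Of the 10 root uptake and coumarin genes, 3 lie below -1, as do 9 of the 61 tested genes of the 5 other iron lists, all 3 IMA genes included, while the root markers centre on 0.14.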

How the data were processed

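Polyadenylated RNA of 2 ect2 and 2 Col-0 seedling samples was extracted with TRIzol and made into libraries with a NEBNext Ultra kit, per the labels' protocols. Per the submitters' processing notes, cutadapt and TopHat were used with TAIR10. No quantifier, annotation release or strand setting is named in them. Each library has its own table, and the values the authors deposited are read as FPKM. That unit is inferred from the header's column names and from sums that are too large for TPM and differ between libraries. The read total is unknown, so no counting interval is given, and relative depth comes from the most frequent ratio of values below 0.4 FPKM. The libraries were grouped by sample title, and no library pair held identical values.

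Of 33544 identifiers, 32809 matched RefSeq TAIR10.1, from which names, coordinates, promoters and 3′ UTRs (longest transcript) were read. The files hold no coordinates. The 19308 genes that reached 1 FPKM in 2 or more of the 4 libraries were put on the scale log2(FPKM + 1). The genotypes were compared with limma (version 3.58.1, R 4.3.3), using robust estimation and an intensity trend. Each SE given is the moderated one of this fit, which borrows from the spread of genes of like level. The log2(FPKM + 1) scale understates differences of low genes. P-values are two-sided, with Benjamini-Hochberg adjustment over all genes tested and a threshold of 0.05. The fit was tested on simulated data.

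The members and lists were chosen with earlier results of these data known. Named are the members, ECT2, the 3 genes of smallest p in each other metal list and the 5 genes nearest to IRT1. FIT and BHLH100 were added after their values were seen. Alternatives were other pseudocounts and filters, TMM factors, quantile normalization, equal library medians, limma without trend and without robust estimation, a replicate block and leaving out each library.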

Additional observations from a re-analysis of the deposited data

How the results depend on the processing

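Under the 13 alternatives the log2 difference stayed negative for IRT1 (-2.70 to -2.20), FRO2 (-2.12 to -1.31), CYP82C4 (-3.97 to -2.54) and MTP3 (-0.58 to -0.13). It took both signs for IRT2 (-0.34 to 0.18), AHA2 (-0.35 to 0.24), F6'H1 (-0.39 to 0.01) and S8H (-0.09 to 0.32), and was not negative for ABCG37 (0.01 to 0.10) and IREG2 (0.00 to 0.46). Over fits without 1 library, the median of the 10 genes ran from -0.29 to -0.068, the genes called over all genes from 0 to 520, the members called from 0 to 1 and the genes called in the 5 other iron lists from 0 to 6. The member called was IRT1, without Col-0 replicate 1 and without Col-0 replicate 2. IRT1 was chosen with this contrast known, and 1 library stands for Col-0 in these fits, so nothing is read from that call. The 6 list genes, called without Col-0 replicate 2, were IMA1, IMA2, NAS2, NAS4 and BHLH39, which were lower in ect2, and BHLH121, which was higher. No gene was called without ect2 replicate 1 or without ect2 replicate 2, where 284 and 431 had an unadjusted p below 0.05 in limma. In these fits the lone library is assumed to vary like the other genotype, and the cause of the changes was not tested. The fit with a replicate block called 6 genes and no member. The deviations of same-numbered libraries correlated at 0.01 across genes, so the numbers are not taken to pair them. With 2 libraries a genotype and an unknown read total, the values of CYP82C4 in ect2 and of S8H in both genotypes are the least certain.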
